A study of Rattus norvegicus with 4 samples.

Results

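The genes described are 3 Notch receptors (Notch1, Notch2 and Notch3), the ligand Jag1, and the transcriptional repressors Hey1 and Hes1, read in rat granulosa cells with and without active FOXO1. They were taken by gene symbol, with all 7 probe sets annotated to exactly 1 of these symbols, out of 31099 probe sets and 14217 named genes. The 6 genes were picked with earlier results of these arrays known, among them the high Hey1 signal with the FOXO1 DNA-binding mutant, so their values are descriptions and carry no test.

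The cells were primary granulosa cells, which surround the oocyte in the follicle and make estradiol, taken from estradiol-treated immature female Sprague-Dawley rats aged 23 to 25 days. An adenovirus was left on them for 4 h, and culture went on for 24 h with follicle-stimulating hormone (FSH, 100 ng/ml) or vehicle. FOXOA3-mDBD FSH cells received FSH and FOXOA3-mDBD, a form of active FOXO1 with a mutation in its DNA-binding domain, and FOXOA3 FSH cells received FSH and FOXOA3, a constitutively active FOXO1. GFP FSH cells received FSH and a control virus with green fluorescent protein, and GFP vehicle cells received the same control virus without the hormone. All 4 groups thus share the estradiol priming of the animals and an adenoviral infection. No source used here gives the promoter in the vectors, the amount of virus, the share of infected cells or whether an array held RNA of several cultures. There was 1 array per group, so no difference has a replicate check and no p-value is given.

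In Notch signalling, a membrane ligand such as Jag1 on one cell binds a Notch receptor on its neighbour, which is then cut by ADAM proteases and by gamma-secretase. The freed intracellular domain enters the nucleus, joins the DNA-binding protein RBPJ and a Mastermind coactivator, and switches on HES and HEY genes, whose products are basic helix-loop-helix repressors. In the mouse ovary Jag1 is known from oocytes and Notch2 from granulosa cells, and Notch3 is best known from the mural cells of blood vessels.

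The RefSeq promoter table (build GRCr8) matched 5 of the 6 genes, without Hey1. The 250 bases before the annotated start are given for Hes1, the repressor that was lower with FOXOA3-mDBD, for Jag1, the ligand that was lower with FOXOA3, and for Hey2, the paralogue of Hey1 that was higher with both vectors. Hes1 lies at chr11:84213046-84213295 on the minus strand, Jag1 at chr3:144894884-144895133 on the minus strand and Hey2 at chr1:28640850-28641099 on the plus strand, and each is written 5′ to 3′ on the strand of its gene. Capitals mark TGGGAA, the core recognised by RBPJ, and CACGCG, an E-box type bound by HES and HEY proteins, each searched on both strands.
Hes1: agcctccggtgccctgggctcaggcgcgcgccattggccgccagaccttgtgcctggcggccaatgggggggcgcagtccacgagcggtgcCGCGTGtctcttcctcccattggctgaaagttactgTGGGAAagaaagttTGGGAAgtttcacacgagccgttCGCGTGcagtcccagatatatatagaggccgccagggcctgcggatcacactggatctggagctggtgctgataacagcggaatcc
Jag1: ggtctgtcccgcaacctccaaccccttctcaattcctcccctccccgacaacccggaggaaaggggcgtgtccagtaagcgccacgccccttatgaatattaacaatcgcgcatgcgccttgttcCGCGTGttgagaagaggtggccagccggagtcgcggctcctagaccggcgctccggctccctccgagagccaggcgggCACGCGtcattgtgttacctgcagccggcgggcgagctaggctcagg
Hey2: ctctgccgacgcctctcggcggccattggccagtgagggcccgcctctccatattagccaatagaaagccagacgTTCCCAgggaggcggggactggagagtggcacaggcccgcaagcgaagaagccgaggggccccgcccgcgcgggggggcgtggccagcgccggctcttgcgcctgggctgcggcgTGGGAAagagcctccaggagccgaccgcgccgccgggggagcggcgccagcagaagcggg
The Hes1 window holds the RBPJ core at 2 places on the strand of the gene, at 123 to 118 and at 109 to 104 bases upstream, and the Hey2 window holds it at 2 places on opposite strands. The core was in 22.1% of 33469 rat promoter windows of the same length, and it was in neither the Jag1 window nor those of the 3 receptors. CACGCG was at 2 places each in the Hes1, Jag1 and Notch2 windows, against 7.14% of all windows with at least 1. The N-box CACNAG, another HES binding motif, was at 4 places each in the Hes1 and Notch1 windows and at 1 in that of Notch3. It was in 37.2% of all windows. GTAAACA, a FOXO motif found in 3.21% of all windows, was in 0 of these 5 gene windows and not in that of Hey2. No matches of different motifs overlapped in the 3 windows shown. A match is a description of the letters and shows no binding.

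The values are MAS5 signals on a linear scale, which the authors computed per probe set and scaled to a common mean on each array, so total RNA per cell cannot be compared. Fewer cells of a type and less RNA per cell also cannot be told apart. Signals under a floor of 100.5, the median signal of all rat probe sets, were raised to it before a ratio was taken. Genes with at least 1 of the 2 signals past the floor are called measured in that comparison, and ratios against a signal at the floor are written "at least". Genes at a fold of 2 or more are called higher or lower.

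Of 9 granulosa markers, 8 were above the floor on FOXOA3-mDBD FSH, 9 on FOXOA3 FSH, 9 on GFP FSH and 8 on GFP vehicle. Their signals summed to 27282 on FOXOA3-mDBD FSH, 42527 on FOXOA3 FSH, 99834 on GFP FSH and 32586 on GFP vehicle, so the sum was lowest on the mutant array and highest on GFP FSH. The median granulosa marker read 2574, 4212, 10820 and 2210 on the same arrays, and was thus lowest on GFP vehicle. Foxl2, a transcription factor of granulosa identity, read 994 on FOXOA3-mDBD FSH, 4297 on FOXOA3 FSH, 3536 on GFP FSH and 5546 on GFP vehicle. Cyp19a1, the FSH-induced aromatase, read 274.8 on FOXOA3-mDBD FSH, 725.5 on FOXOA3 FSH, 13042 on GFP FSH and 35.0 on GFP vehicle. Marker signals of pericytes and endothelium summed to 191.7 to 400.2 and 394.2 to 776.7, with 0 or 1 of 5 and 1 to 3 of 7 markers above the floor in that order of cell types. Pecam1, Tie1, Vwf and Emcn of the endothelium and Pdgfrb, Rgs5 and Kcnj8 of pericytes were under it on all 4 arrays. The other pericyte markers passed the floor on some arrays, Cspg4 on GFP vehicle (180.6) and Abcc9 on FOXOA3-mDBD FSH and GFP FSH (163.1 and 222.5). Kdr, also of the endothelium, was above it on all 4 (236.0, 193.7, 123.3 and 376.3, in the array order used so far), Tek on the 2 vector arrays with FOXO1 forms (212.3 and 172.9) and Esam on FOXOA3 FSH and GFP vehicle (292.2 and 231.7). Leukocyte markers (0 to 2 of 6 above the floor) summed to 263.5 to 433.2, oocyte markers (2 or 3 of 5) to 442.7 to 1200.0, and theca markers (0 or 1 of 3) to 48.2 to 4535.4, mostly through Lhcgr, which FSH also induces in granulosa cells. Stroma and smooth muscle markers summed to 1471 on FOXOA3-mDBD FSH, 16981 on FOXOA3 FSH, 2078 on GFP FSH and 14277 on GFP vehicle, with 3, 6, 4 and 6 of 9 above the floor in that order. Few genes carried these sums: Dcn gave 12504 on FOXOA3 FSH, and Tagln and Acta2 gave 9167 and 3711 on GFP vehicle, while the median marker read 79.5, 122.7, 91.4 and 179.8 on the 4 arrays. The poly-A control transcripts spiked into the samples averaged (geometric mean) 539 on FOXOA3-mDBD FSH and 395 on GFP FSH, against 22.6 on FOXOA3 FSH and 21.4 on GFP vehicle. The comparisons FOXOA3-mDBD FSH over GFP FSH and FOXOA3 FSH over GFP vehicle therefore stay within one spike state, and the other 4 cross it. The hybridisation controls split the arrays the same way. Their geometric means were 2860 on FOXOA3-mDBD FSH and 2760 on GFP FSH, against 1220 on FOXOA3 FSH and 1650 on GFP vehicle. The actin 3′ to 5′ signal ratio, a measure of RNA quality, was 10.7 on FOXOA3-mDBD FSH, 9.79 on FOXOA3 FSH and 12.0 on GFP FSH, against 5.15 on GFP vehicle, so every comparison with GFP vehicle crosses a difference in that ratio. The GAPDH ratio was 3.15, 2.84, 2.46 and 2.32 on the same arrays. The part of these array differences and of the cell type markers in the results was not tested. The Foxo1 probe set showed no higher signal with either FOXO1 vector than on GFP vehicle: it read 961 on FOXOA3-mDBD FSH, 3834 on FOXOA3 FSH, 2862 on GFP FSH and 8149 on GFP vehicle. Whether its probes match the vector transcripts is not known here, so it does not check the vectors, and the groups are named as labelled.

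**Figure D1:**
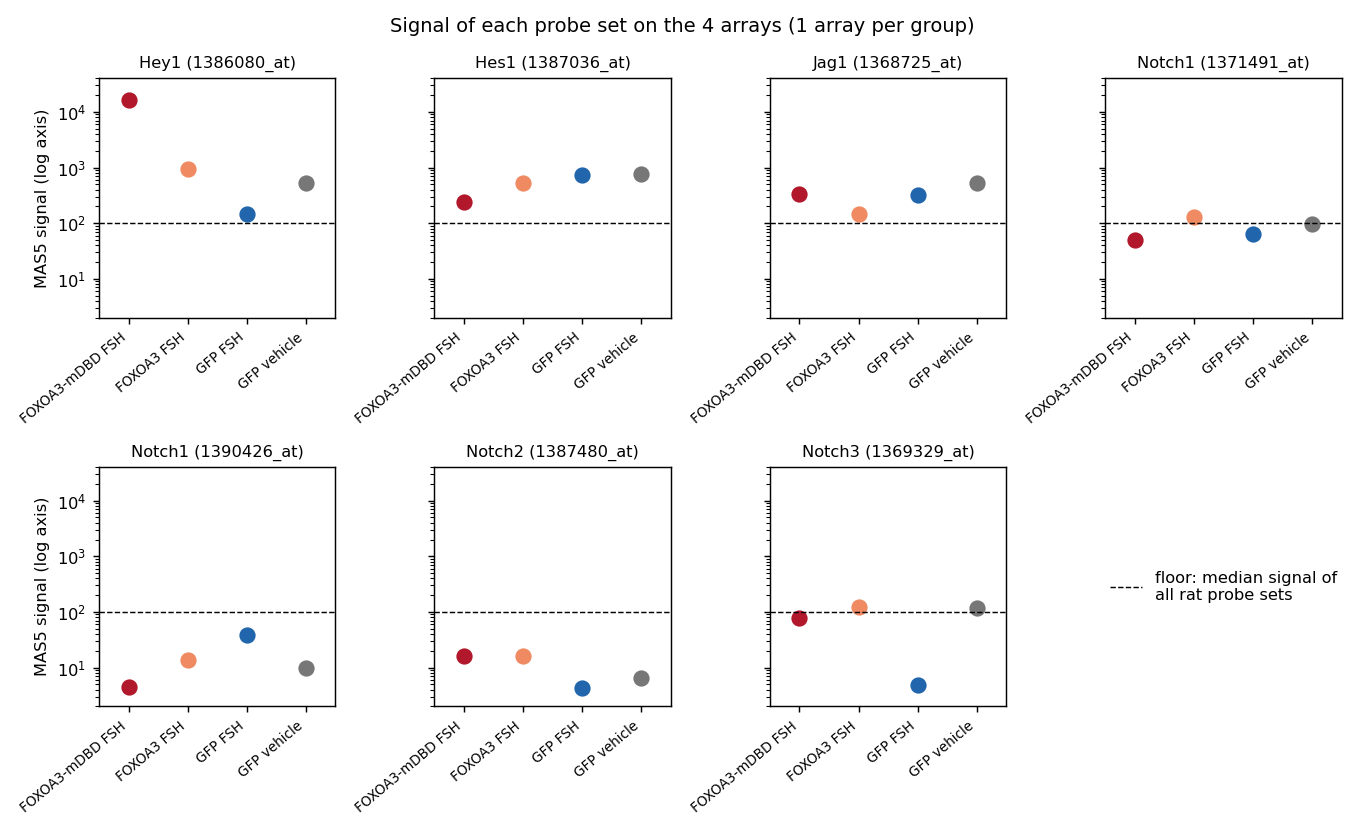
MAS5 signal (log axis) of the 7 probe sets of the 6 genes on the 4 arrays, 1 point per array, with the floor of 100.5 as a dashed line. Hey1 reaches 16138 on FOXOA3-mDBD FSH and is at most 955 on the other 3 arrays, while Notch2 and a second probe set of Notch1 are under the floor on all 4.

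Hey1, a repressor that serves as a readout of Notch signalling in many tissues, had the widest range of the 3 genes above the floor on every array, the others being Hes1 and Jag1. Its probe set (1386080_at, the single one for this gene) gave 16138 on FOXOA3-mDBD FSH, 955 on FOXOA3 FSH, 144 on GFP FSH and 518 on GFP vehicle. The array with the DNA-binding mutant thus stood far above the other 3, and the array with FSH alone was the lowest. On FOXOA3-mDBD FSH the signal exceeded that of 99.7% of all rat probe sets, against 82.5% on FOXOA3 FSH, 57.4% on GFP FSH and 73.5% on GFP vehicle.

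Against GFP FSH, Hey1 was 112-fold higher with FOXOA3-mDBD (log2 ratio 6.81), which placed it at rank 3 of 9748 measured genes. With FOXOA3 it was 6.62-fold higher (2.73), at rank 93 of 9941 genes. With the floor at the 75th percentile of all signals these log2 ratios were 4.89 and 0.82, so the second was then under 2-fold. These comparisons share the GFP FSH array, on which Hey1 was at its lowest, so they are not independent of each other. Set directly against FOXOA3 FSH, the FOXOA3-mDBD signal was 16.9-fold higher (4.08), at rank 25 of 10092 genes. The Hey1 signal was thus higher on the array with the DNA-binding mutant than on the one with the intact active form.

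FSH under the control vector went with a Hey1 signal 3.59-fold lower than with vehicle (log2 ratio -1.84), the 289th lowest ratio of 9578 genes. With the 75th percentile floor both of these signals were under it, and no ratio was measured. With FOXOA3 and FSH together the signal was 1.85-fold above that of GFP vehicle (0.88), under the 2-fold threshold. With FOXOA3-mDBD and FSH it was 31.2-fold above it (4.96), again at rank 25, here of 9861 genes. Hey1 was thus nearer to vehicle with the intact active FOXO1 than with the mutant. The comparison of FOXOA3-mDBD FSH with GFP FSH, where Hey1 differed most, lies within one spike state. So does the 1.85-fold difference of FOXOA3 FSH from GFP vehicle, which crosses the difference in the actin ratio. The Hey1 ratios of 6.62-fold (FOXOA3 over GFP FSH), 16.9-fold (FOXOA3-mDBD over FOXOA3), 31.2-fold and 3.59-fold cross the spike state. Its part in these ratios was not tested. On the mutant array, where Hey1 was highest, the granulosa marker sum and Foxl2 were at their lowest, as given above. The median granulosa marker was lowest on GFP vehicle instead.

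**Figure D2:**
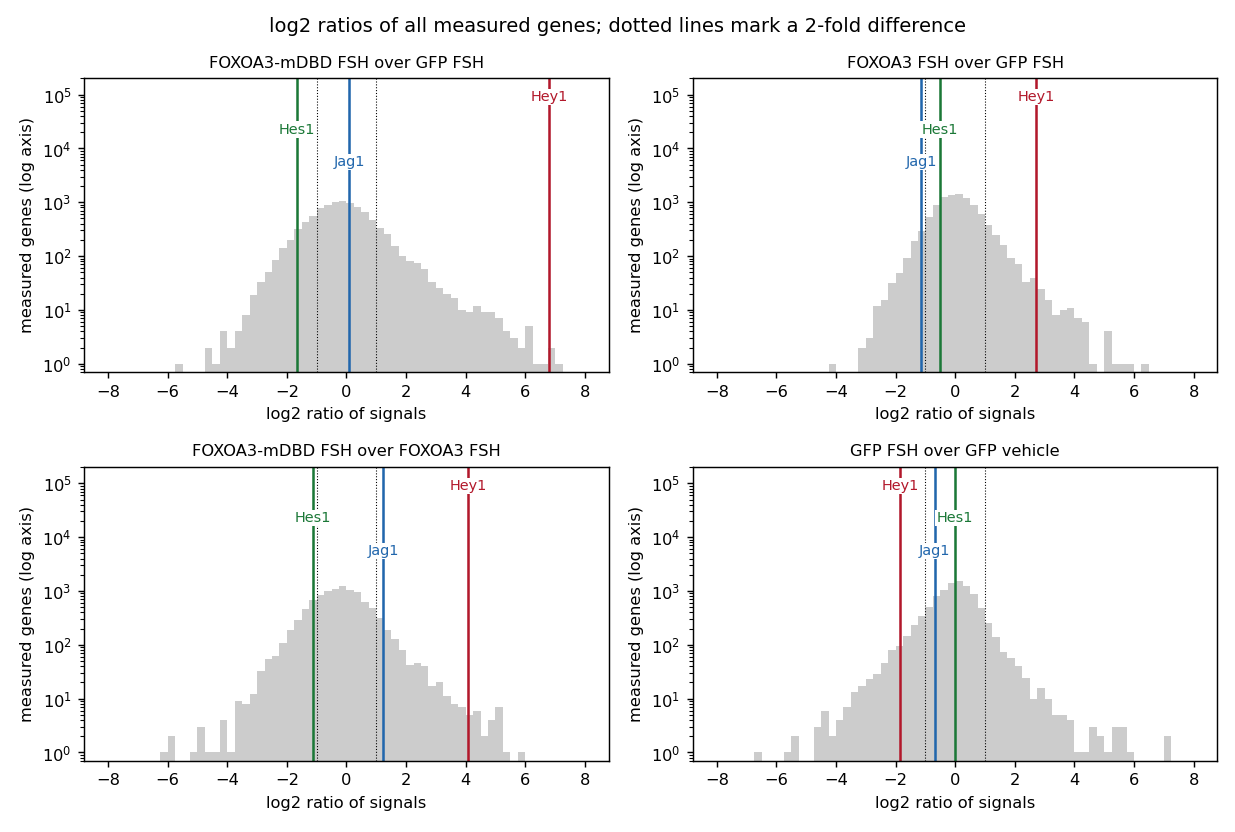
Number of measured genes (log axis) by log2 ratio of signals in 4 comparisons, with the ratios of Hey1, Hes1 and Jag1 as lines and a 2-fold difference as dotted lines. Hey1 lies in the far right tail for FOXOA3-mDBD FSH over GFP FSH at 6.81, and on the left side for GFP FSH over GFP vehicle at -1.84, while Hes1 is at -1.65 in the first of these and Jag1 at 0.09.

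Hes1, the other repressor of the set and a classical RBPJ target, took a different course. Its signal (1387036_at) was 238 on FOXOA3-mDBD FSH, 521 on FOXOA3 FSH, 747 on GFP FSH and 758 on GFP vehicle. The arrays with the control virus were nearly equal, at a 1.02-fold difference, and the mutant array was the lowest. Against GFP FSH, Hes1 was 3.14-fold lower with FOXOA3-mDBD (log2 ratio -1.65) and 1.43-fold lower with FOXOA3 (-0.52). With the 75th percentile floor the ratio of FOXOA3-mDBD over GFP FSH was within 2-fold (-0.46). On the array where Hey1 was at its highest, Hes1 was therefore at its lowest. Hes1 was 2.19-fold lower with FOXOA3-mDBD than with FOXOA3 (-1.13), but by less than 2-fold under quantile normalization (-0.91), median centring (-0.93) and loess (-0.60). In ratios with FOXOA3-mDBD the median of all measured genes was itself negative, at -0.16 against GFP FSH, -0.20 against FOXOA3 FSH and -0.17 against GFP vehicle. Whether this comes from scaling or from an excess of lower genes was not tested. Relative to the median gene, Hes1 was at -1.49 and Hey1 at 6.97 with FOXOA3-mDBD over GFP FSH.

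Jag1, the ligand, was lowest with the intact active FOXO1. Its signal (1368725_at) was 342 on FOXOA3-mDBD FSH, 145 on FOXOA3 FSH, 321 on GFP FSH and 517 on GFP vehicle. The FOXOA3 FSH array stood below the other 3, and the mutant and GFP FSH arrays were close to each other. With FOXOA3, Jag1 was 2.22-fold lower than with GFP FSH (log2 ratio -1.15) and 3.57-fold lower than with GFP vehicle (-1.84), the second of which lies within one spike state but crosses the difference in the actin ratio. That last ratio was the 57th lowest of 9904 genes. FOXOA3-mDBD gave a 1.06-fold difference from GFP FSH (0.09) and a signal 2.36-fold higher than FOXOA3 (1.24). FSH under the control vector went with a signal 1.61-fold lower than vehicle (-0.69), under the threshold. All 4 Jag1 signals were under the 75th percentile floor, where no ratio was measured, and loess put FOXOA3-mDBD over FOXOA3 at 1.87. Unlike Hey1, which was higher than in GFP FSH cells with both vectors, Jag1 was thus below GFP FSH by 2-fold with FOXOA3 and not with the mutant.

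The 3 receptors, which receive the ligand at the cell surface, had dim probe sets. Notch3 (1369329_at) read 76.3 on FOXOA3-mDBD FSH, 121.5 on FOXOA3 FSH, 4.9 on GFP FSH and 117.5 on GFP vehicle. It was just above the floor on FOXOA3 FSH and GFP vehicle and under it on the other 2 arrays, so its ratios over GFP FSH are bounds of at least 1.21-fold for FOXOA3. With the low GFP FSH signal, the FSH ratio under the control vector depended on the floor: Notch3 was at least 1.17-fold lower here (log2 ratio -0.23), against -2.10 with the 25th percentile floor and -2.68 with a pseudocount of 16.

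Notch1 was read by a pair of probe sets that did not follow each other. The brighter one (1371491_at) gave 49.3 on FOXOA3-mDBD FSH, 126.6 on FOXOA3 FSH, 63.0 on GFP FSH and 98.4 on GFP vehicle, and was above the floor on 1 array. The other (1390426_at) gave 4.4, 13.4, 38.7 and 9.9 on the same arrays and was under the floor on all of them. Notch2 (1387480_at), the receptor known from mouse granulosa cells, read 15.8 on FOXOA3-mDBD FSH, 15.8 on FOXOA3 FSH, 4.2 on GFP FSH and 6.5 on GFP vehicle. No receptor differed by 2-fold in any of the 6 comparisons at this floor. With the 25th percentile floor, FOXOA3 over GFP FSH gave log2 ratios of 1.01 for Notch1 and 2.15 for Notch3, FOXOA3-mDBD over GFP FSH gave 1.48 for Notch3, and FOXOA3-mDBD over FOXOA3 gave -1.36 for Notch1. In each case at least 1 of the 2 signals was under the floor of 100.5, and signals so dim cannot show whether a receptor was expressed or differed.

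Counted together, 2 of the 3 measured genes were 2-fold apart with FOXOA3-mDBD over GFP FSH, Hey1 higher and Hes1 lower. Of all measured genes 31.7% were, 12.5% higher and 19.2% lower. With FOXOA3 over GFP FSH it was 2 of 5, Hey1 higher and Jag1 lower, beside 18.1% of all genes, 11.1% higher and 6.99% lower. With FOXOA3-mDBD over FOXOA3 FSH it was 3 of 5, Hey1 and Jag1 higher and Hes1 lower, beside 28.2%, 9.24% higher and 19.0% lower. With GFP FSH over GFP vehicle it was 1 of 4, Hey1 lower, beside 17.9%, 6.84% higher and 11.1% lower. With FOXOA3-mDBD FSH over GFP vehicle it was 2 of 4, Hey1 higher and Hes1 lower, beside 35.4%, 13.0% higher and 22.5% lower. With FOXOA3 FSH over GFP vehicle it was 1 of 5, Jag1 lower, beside 9.33%, 5.32% higher and 4.01% lower. Counts this small, over genes picked with their values known, say nothing about the set against the background.

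The wider pathway was described by a list of 84 further genes of Notch signalling, of which 70 were named on the array, 58 were above the floor on at least 1 array and 14 were not analysed here. With FOXOA3-mDBD over GFP FSH, 11 of 53 measured genes were 2-fold higher and 14 lower, together 47.2% beside 31.7% of all genes, with a median log2 ratio of -0.09 beside -0.16. After median centring, 13 were higher and 9 lower, and the split of all genes moved from 1221 higher and 1867 lower to 1517 and 1465. After loess, 11 of the list were higher and 8 lower, beside 1584 higher and 1332 lower of all 9748 measured genes. With FOXOA3 over GFP FSH, 10 of 53 were higher and 2 lower, together 22.6% beside 18.1%, with a median of 0.12 beside 0.04. With FOXOA3-mDBD over FOXOA3 FSH, 5 of 56 were higher and 14 lower (33.9% beside 28.2%, median -0.34 beside -0.20). After loess these were 7 and 12, and for all genes the split of 932 higher and 1913 lower became 1319 and 1315 after centring and 1304 and 1033 after loess. With GFP FSH over GFP vehicle, 2 of 49 were higher and 4 lower (12.2% beside 17.9%, median -0.27 beside -0.003). With FOXOA3-mDBD FSH over GFP vehicle, 6 of 53 were higher and 20 lower (49.1% beside 35.4%, median -0.46 beside -0.17). After loess these were 11 and 14, beside 1649 and 1508 of all 9861 measured genes. With FOXOA3 FSH over GFP vehicle, 3 of 53 were higher and 1 lower (7.55% beside 9.33%). After quantile normalization these were 3 and 2, beside 525 and 430 of all genes. The list was chosen with earlier results of these data known, so its shares carry no test.

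**Figure D3:**
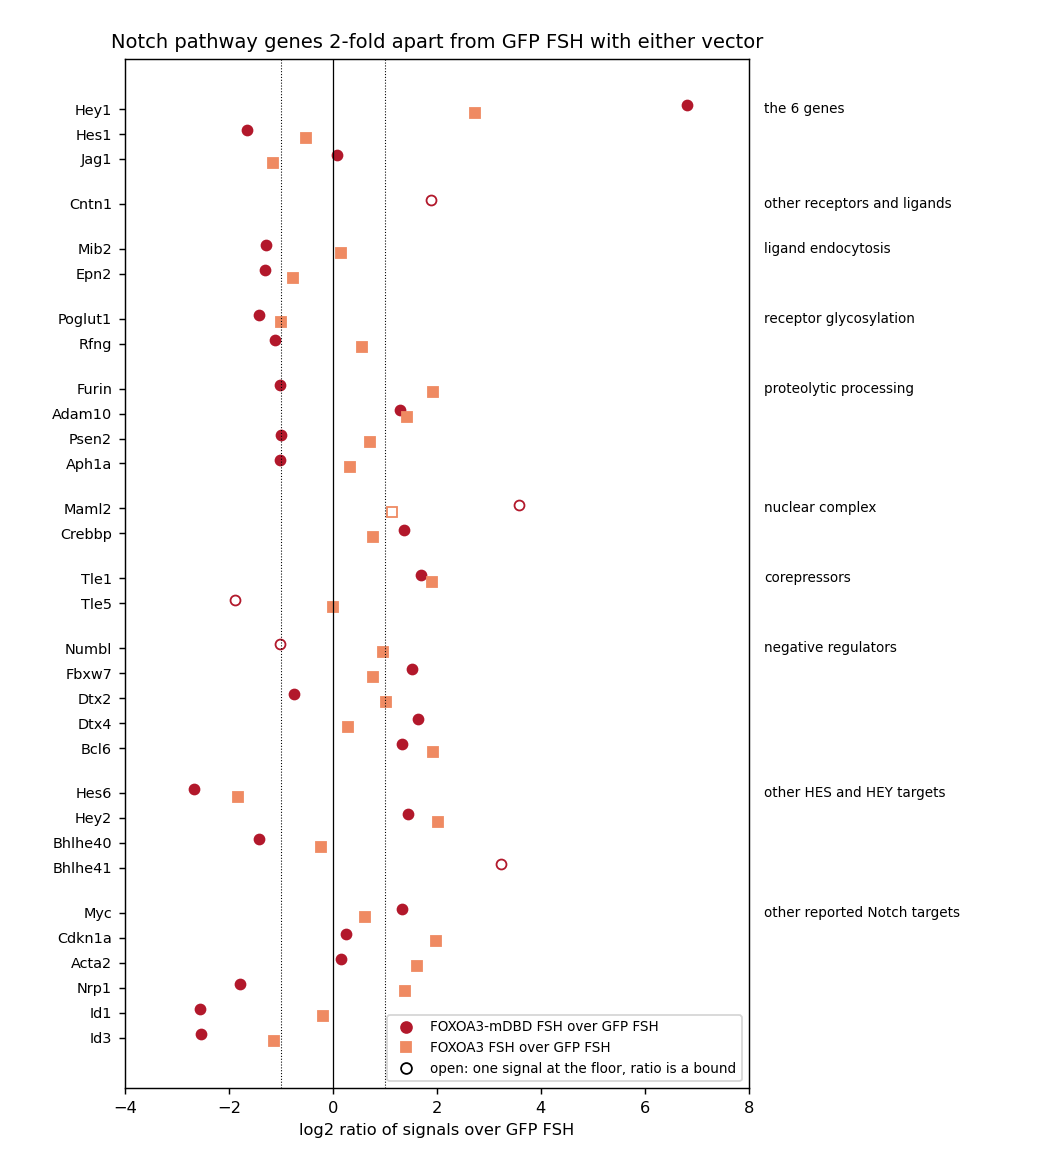
log2 ratio of signals over GFP FSH for each pathway gene that was measured and 2-fold apart from GFP FSH with FOXOA3-mDBD (circles) or FOXOA3 (squares), grouped by role, with open symbols for ratios that are bounds. Hey1 has the highest ratio with each vector, at 6.81 and 2.73, and Maml2 follows with FOXOA3-mDBD at 3.59 or more.

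Of 8 other receptors and ligands named on the array, Jag2, Dll4 and Cntn1 were above the floor on 1 array each, and Notch4, Dll1, Dll3, Dlk1 and Dlk2 on none. Cntn1, a contactin proposed as a non-canonical ligand, read 371.4 on FOXOA3-mDBD FSH, 32.9 on FOXOA3 FSH, 28.1 on GFP FSH and 20.8 on GFP vehicle. It was at least 3.70-fold higher with the mutant than in each of the other groups. Ligands need to be pulled into the sending cell by ubiquitin ligases and epsins, and of these Mib2 was 2.45-fold and Epn2 2.48-fold lower with FOXOA3-mDBD than in GFP FSH cells. Under loess Mib2 was within 2-fold (-0.92).

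Of the enzymes that glycosylate and cut the receptor, 1 of 2 and 3 of 7 measured genes were 2-fold lower with FOXOA3-mDBD than with FOXOA3, and 0 were higher. Of all measured genes in that comparison, 19.0% were lower and 9.24% higher, and counts this small say nothing against that share. The ratios of single genes given next are over GFP FSH. Poglut1, which glucosylates Notch repeats, was 2.67-fold and the fringe enzyme Rfng 2.16-fold lower with FOXOA3-mDBD than with GFP FSH. With FOXOA3, Poglut1 was 1.98-fold lower and Rfng 1.47-fold higher than with GFP FSH. Furin, the convertase that makes the first cut of the receptor, read 126.2 on FOXOA3-mDBD FSH, 963.2 on FOXOA3 FSH, 254.2 on GFP FSH and 813.3 on GFP vehicle. It was high on FOXOA3 FSH and GFP vehicle and low on the other pair, an order that also follows the spike state. Adam10, the protease that cuts after ligand binding, was 2.44-fold higher with FOXOA3-mDBD and 2.70-fold higher with FOXOA3 than with GFP FSH. Of the gamma-secretase subunits, Psen2 was 2-fold and Aph1a 2.02-fold lower with FOXOA3-mDBD than with GFP FSH, at the threshold and short of it under median centring (-0.84 and -0.85). Rfng (-0.95), Furin (-0.85) and the Numb-like adaptor Numbl (-0.85) were likewise within 2-fold after centring.

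In the nuclear complex, the DNA-binding subunit Rbpj was steady, at 4501 on FOXOA3-mDBD FSH, 4428 on FOXOA3 FSH, 4112 on GFP FSH and 4836 on GFP vehicle. Maml2, a Mastermind coactivator, read 1209.5 on FOXOA3-mDBD FSH, 221.3 on FOXOA3 FSH, 53.9 on GFP FSH and 245.3 on GFP vehicle. Its order over the arrays was close to that of Hey1, with the mutant highest and FSH alone lowest. Maml2 was at least 12.0-fold higher with FOXOA3-mDBD than with GFP FSH and 5.47-fold higher than with FOXOA3. The acetyltransferase Crebbp was 2.58-fold higher with FOXOA3-mDBD than with GFP FSH, and Maml1 lay within 2-fold of GFP FSH with both vectors.

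Among repressors of the pathway, the Groucho corepressor Tle1 was 3.24-fold higher with FOXOA3-mDBD and 3.77-fold higher with FOXOA3 than with GFP FSH. Tle5, a short relative that opposes other Groucho proteins, was at least 3.67-fold lower with FOXOA3-mDBD than with GFP FSH. Bcl6, a repressor of Notch target genes, was 2.52-fold and 3.82-fold higher with FOXOA3-mDBD and FOXOA3 than with GFP FSH. Fbxw7, which marks cleaved Notch for degradation, was 2.88-fold higher with FOXOA3-mDBD, and the ubiquitin ligase Dtx4 3.10-fold higher. Nrarp, a feedback inhibitor that Notch induces in many tissues, read 108.7 on FOXOA3-mDBD FSH, 51.6 on FOXOA3 FSH, 58.0 on GFP FSH and 55.6 on GFP vehicle. It passed the floor on the mutant array alone, and by little.

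The remaining HES and HEY genes did not share one direction. Hey2, the paralogue of Hey1, read 1179 on FOXOA3-mDBD FSH, 1753.5 on FOXOA3 FSH, 431 on GFP FSH and 464 on GFP vehicle. It was 2.73-fold higher with FOXOA3-mDBD and 4.06-fold higher with FOXOA3 than with GFP FSH, so that here the intact form gave the higher signal. Hey2 was also 3.78-fold higher on FOXOA3 FSH than on GFP vehicle, a comparison within one spike state that crosses the difference in the actin ratio. Hes6, a relative that inhibits Hes1, was 6.37-fold lower with FOXOA3-mDBD and 3.52-fold lower with FOXOA3 than with GFP FSH, and 3.70-fold higher with FSH than with vehicle. Heyl (83.8 to 120.7) and Hes5 (22.2 to 120.5) were above the floor on 1 array each, and Hes2 and Hes3 on none.

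The related repressors Bhlhe40 and Bhlhe41, which are better known from the circadian clock, differed in direction. Bhlhe41 read 948.1 on FOXOA3-mDBD FSH, against 61.3 on FOXOA3 FSH, 41.6 on GFP FSH and 45.6 on GFP vehicle, at least 9.43-fold higher on the mutant array than on each other. Bhlhe40 was 2.68-fold lower with FOXOA3-mDBD than with GFP FSH. Of other genes reported as Notch targets in some tissues, Id1 and Id3, inhibitors of helix-loop-helix factors, were 5.88-fold and 5.77-fold lower with FOXOA3-mDBD than with GFP FSH. Myc was 2.51-fold higher in the same comparison. Id3 was highest on GFP FSH (6489), and with FOXOA3 it was also 2.2-fold lower than there, though within 2-fold under loess (-0.91). Id1 was 1.14-fold lower with FOXOA3 than with GFP FSH. The cell cycle inhibitor Cdkn1a was 3.94-fold higher with FOXOA3 than with GFP FSH. Its signals were 5657 on FOXOA3 FSH and 3904 on GFP vehicle, against 1721 on FOXOA3-mDBD FSH and 1436 on GFP FSH. This order also follows the spike state. Over GFP vehicle, within one spike state but across the difference in the actin ratio, Cdkn1a was 1.45-fold higher with FOXOA3. Acta2, the smooth muscle actin, was 3.09-fold higher with FOXOA3 than with GFP FSH and 19.3-fold lower with FSH than with vehicle, and it is also one of the stroma markers whose sums are given above.

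The gene patterns nearest to Hey1 over the 4 arrays were sought among 5422 other genes with a log2 range of at least 1, by the root mean square difference of log2 signals centred on each gene. The nearest were Epha4, an ephrin receptor (0.25), Arhgap24, a GTPase-activating protein (0.36), Chodl (0.37), Fgl2 (0.47) and Exoc6, an exocyst subunit (0.54). Epha4 read 6955 on FOXOA3-mDBD FSH, 574 on FOXOA3 FSH, 28.3 on GFP FSH and 288 on GFP vehicle. Fgl2 read 11924, 1461, 250 and 729 on the same arrays. All 5 were highest on the mutant array and lowest on GFP FSH, which follows from how they were picked. On GFP FSH, 3 of them were under the floor. With 4 arrays such a likeness is loose and says nothing of shared function.

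The genes nearest to Jag1 were Cntrl, a centriole protein (0.17), the retinoblastoma gene Rb1 (0.18), Lrig1 (0.21), Epb41l4a (0.22) and Zdhhc2 (0.24). Rb1 read 671 on FOXOA3-mDBD FSH, 396 on FOXOA3 FSH, 719 on GFP FSH and 1273 on GFP vehicle. All 5 shared the low signal on FOXOA3 FSH and the high signal on GFP vehicle, which follows from how they were picked.

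**Figure D4:**
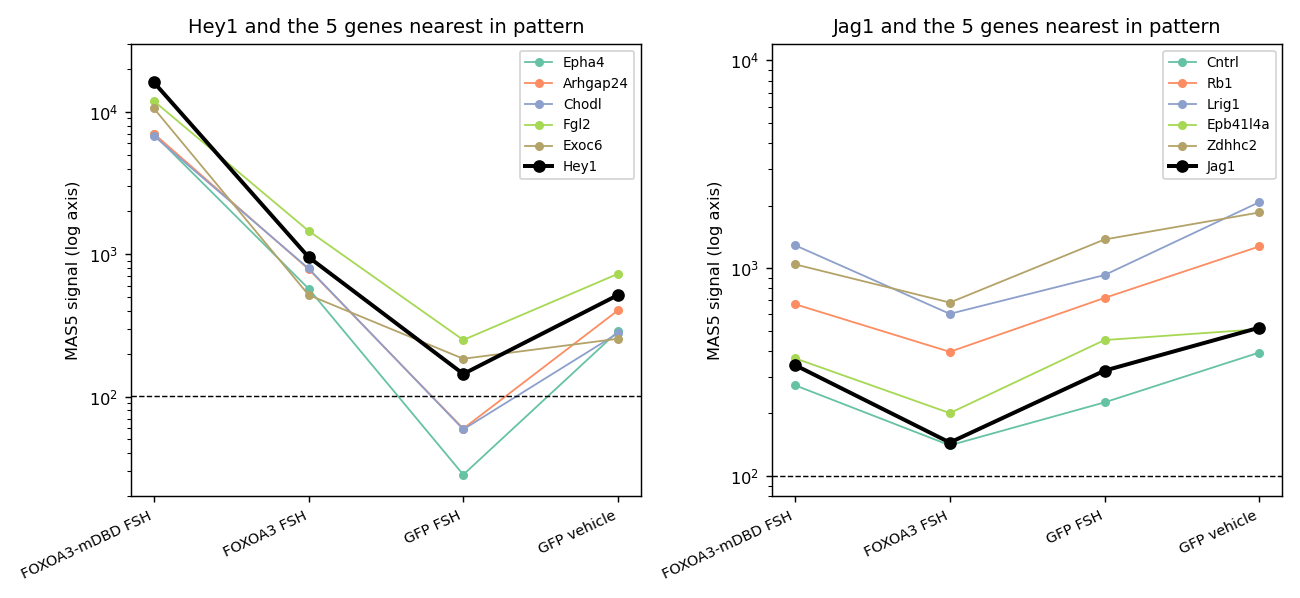
MAS5 signal (log axis) on the 4 arrays of Hey1 with its 5 nearest genes (left) and of Jag1 with its 5 nearest genes (right), with lines joining the points of a gene and the floor of 100.5 dashed. The left genes peak on FOXOA3-mDBD FSH, where Hey1 reads 16138, and the right genes have their lowest signal on FOXOA3 FSH, where Jag1 reads 145.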

How the data were processed

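Total RNA of granulosa cells was hybridised to 4 rat arrays, 1 per group. The authors' deposited values were intensity values per probe set, made with MAS5 per the submitters' processing notes; no source used here names its version. The trimmed means were 500.1 to 500.2, so no further scaling was applied. MAS5 ratios are noisy for dim probe sets, and with so few arrays their number sets the precision.

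Of 31099 probe sets, 57 were controls. Platform annotation gave 1 symbol for 20826, several for 436 and none for 9780. The brightest probe set by mean signal stood for a gene. Ratios used Python 3.11.15 with pandas 2.3.3 and numpy 2.4.6, and loess used statsmodels 0.14.6. The ratio step was tested on simulated data with folds put only into genes far above the floor, so dim signals were not covered. The 6 comparisons are all pairs of groups. The alternatives were other floors, a pseudocount, other normalizations, other probe sets and other fold thresholds. The members and lists were chosen with earlier results of these data known. Named were the 6 genes, pathway genes 2-fold apart in a comparison, some pathway genes within 2-fold or under the floor, chosen after their values were seen, and the 5 genes nearest in pattern to Hey1 and to Jag1.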

Additional observations from a re-analysis of the deposited data

Results flagged for a closer look

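A pair of pathway genes was 2-fold apart from GFP FSH with both vectors, in opposite directions. With 1 array per group the difference was not tested. Furin was lower with FOXOA3-mDBD (log2 ratio -1.01) and higher with FOXOA3 (1.92), a difference of -2.93 on the log2 scale. The Furin ratio with FOXOA3-mDBD was within 2-fold after median centring (-0.85) and loess (-0.70). Nrp1, a receptor for semaphorins and vascular growth factor, read 252.5 on FOXOA3-mDBD FSH, 2290 on FOXOA3 FSH, 871 on GFP FSH and 1650 on GFP vehicle, a difference of -3.18. For both genes the 2 arrays with low spike signals were the higher ones, and the part of the spike state in this was not tested. Other pathway genes, such as Psen2, Numbl, Cdkn1a and Acta2, were also higher on those arrays.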

How the results depend on the processing

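No paired analysis was possible because each group has 1 array. A log2 ratio was taken as moved if it shifted by more than 1.5-fold, and a count if it changed by more than 1.5 times. Ratios not measured in the main setting or under an alternative were left out, among them all those of Jag1 under the 75th percentile floor. Notch2 thus entered none. Only Notch1 has several probe sets, so the probe set alternatives could not move the ratios of the other genes. Of the 189 ratios left, including those that could not move, 177 stayed, 12 moved and 0 of those at 2-fold or more changed sign. Hey1 moved in 2 of them, both under the 75th percentile floor: to 4.89 with FOXOA3-mDBD and 0.82 with FOXOA3, each over GFP FSH. Counts of the 6 genes that were 2-fold apart moved in 13 of 60 cases. With GFP FSH over GFP vehicle the count of 1 became 2 with the 25th percentile floor, the pseudocount of 16 or a fold of 1.5, and 0 with the 75th percentile floor. With FOXOA3 over GFP FSH the count of 2 became 4 with the 25th percentile floor, 0 with the 75th and 1 at a fold of 3. With FOXOA3-mDBD it became 1 over GFP FSH, GFP vehicle or FOXOA3 FSH under the 75th percentile floor, and 1 over FOXOA3 FSH at a fold of 3. With FOXOA3 FSH over GFP vehicle the count of 1 became 0 under the 75th percentile floor and 2 at a fold of 1.5. A higher floor raises dim signals, which by construction shrinks these ratios. Counts of the wider list moved in 16 of 60 cases and those of all genes in 21 of 60. With the 75th percentile floor, FOXOA3-mDBD over GFP FSH had 11 of the wider list and 1571 of all genes 2-fold apart, against 25 and 3088, and FOXOA3 over GFP FSH had 7 and 814, against 12 and 1800. FOXOA3-mDBD over FOXOA3 FSH had 8 and 1255, against 19 and 2845, and over GFP vehicle 12 and 1746, against 26 and 3495. Over all genes, FOXOA3 FSH over GFP vehicle had 409 against 924, and GFP FSH over GFP vehicle 810 against 1718. With the 25th percentile floor, these last had 1846 and 2651, with 9 and 13 of the wider list against 4 and 6, and FOXOA3 over GFP FSH had 2956 of all genes. With 1 array per group, biological and array-to-array variation could not be estimated.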
